A study of Homo sapiens with 18 samples.

Results

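Imprinted genes were followed in human acute myeloid leukaemia cells treated with drugs that deplete DNA methyltransferases. The set held 10 genes known to be imprinted: PEG10, SGCE, MEST, NAP1L5, PLAGL1, KCNQ1OT1, GNAS, IGF2R, ZNF331 and CDKN1C. They were found by gene symbol among the 17110 genes listed for HL-60 and the 17475 listed for MOLM-13, 19068 in either line. Of the 10 genes, 7 had a row in HL-60 and 8 in MOLM-13: CDKN1C had one in MOLM-13 and none in HL-60, and PEG10 and SGCE had no row in the tables used here and were not analysed. Every member with a row passed the filter on low values.

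HL-60 came from a promyelocytic leukaemia and MOLM-13 from a monocytic one. Cells in RPMI1640 medium with fetal bovine serum received solvent (dimethyl sulfoxide, DMSO), decitabine (DAC) or NTX-301 for 48 h (day 2). Each line thus had 3 groups of 3 replicates, which makes 18 samples. DAC is built into DNA in place of deoxycytidine and traps DNA methyltransferases there, and NTX-301 belongs to the same class of nucleoside analogue. The concentration stated for HL-60 was 30 nM and that for MOLM-13 was 15 nM. From the labels it is not clear if NTX-301 was also given at it. Line and dose cannot be told apart. The labels speak of wells in triplicate and not of separate cultures, so p-values measure the spread between these samples, which may be technical.

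At an imprinted gene the copies inherited from mother and father carry different DNA methylation at an imprinting control region, laid down in the germ line, and as a rule only one copy is transcribed. DNMT1, guided by UHRF1 to newly copied DNA, keeps that methylation through cell division, and the zinc finger proteins ZFP57 and ZNF445 with their partner TRIM28 protect it. Some control regions are promoters that fall silent when methylated, as for KCNQ1OT1, PLAGL1, MEST and NAP1L5, while the one inside IGF2R is methylated on the active copy. Neither methylation nor the parental origin of a transcript was measured in these samples, so every value below is the summed RNA of both copies.

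CG is the dinucleotide that these drugs leave unmethylated. A selection of promoter sequences of PLAGL1, NAP1L5, IGF2R and MEST is shown. Each is the 250 bases before an annotated start, read 5′ to 3′ on the gene's strand from RefSeq (GRCh38.p14), with CG in capitals. Among 34943 such promoter windows of human genes the median window held 11 CG. The 2 PLAGL1 windows printed, of 5 in all with 1 to 32 CG, show how far alternative starts of a single gene can differ. The first is shared with the imprinted RNA HYMAI and the second is not.
PLAGL1 and HYMAI, chr6:144008260-144008509, minus strand: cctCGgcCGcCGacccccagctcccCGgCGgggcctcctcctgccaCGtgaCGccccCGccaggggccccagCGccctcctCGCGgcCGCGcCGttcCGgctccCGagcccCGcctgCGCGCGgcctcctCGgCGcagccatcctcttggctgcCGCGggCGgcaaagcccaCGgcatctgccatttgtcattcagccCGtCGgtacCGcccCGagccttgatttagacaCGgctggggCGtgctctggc
PLAGL1, chr6:144055263-144055512, minus strand: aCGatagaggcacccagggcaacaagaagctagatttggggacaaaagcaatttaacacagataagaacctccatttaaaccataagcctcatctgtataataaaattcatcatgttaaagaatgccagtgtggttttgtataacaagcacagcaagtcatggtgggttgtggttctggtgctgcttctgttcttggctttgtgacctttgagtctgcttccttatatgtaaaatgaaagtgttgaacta
NAP1L5, chr4:88697830-88698079, minus strand: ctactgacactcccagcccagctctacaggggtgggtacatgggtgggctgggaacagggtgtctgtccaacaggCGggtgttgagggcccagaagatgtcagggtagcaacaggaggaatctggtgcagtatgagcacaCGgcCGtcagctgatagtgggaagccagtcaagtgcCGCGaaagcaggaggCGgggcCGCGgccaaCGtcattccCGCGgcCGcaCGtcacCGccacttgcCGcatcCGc
IGF2R, chr6:159968832-159969081, plus strand: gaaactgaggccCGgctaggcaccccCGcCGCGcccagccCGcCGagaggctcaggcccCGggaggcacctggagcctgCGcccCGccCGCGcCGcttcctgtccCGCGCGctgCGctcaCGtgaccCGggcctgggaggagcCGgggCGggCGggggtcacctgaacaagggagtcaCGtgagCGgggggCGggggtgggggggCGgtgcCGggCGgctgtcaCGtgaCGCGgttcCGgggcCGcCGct
MEST, chr7:130491835-130492084, plus strand: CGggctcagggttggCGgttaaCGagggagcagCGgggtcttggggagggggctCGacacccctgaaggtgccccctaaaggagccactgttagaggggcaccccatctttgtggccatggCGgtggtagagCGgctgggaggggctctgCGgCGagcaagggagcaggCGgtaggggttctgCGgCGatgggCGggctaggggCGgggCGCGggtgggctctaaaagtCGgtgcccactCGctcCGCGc
The window shared by PLAGL1 and HYMAI held 32 CG, more than 90.5% of all windows, against 1 CG in the other PLAGL1 window. The IGF2R window held 33 CG, the MEST window 20 and the NAP1L5 window 16. The letters TGCCGC, which ZFP57 binds when methylated, were searched on both strands: they occurred 2 times in the PLAGL1 and HYMAI window, 2 times in the NAP1L5 window and not in the other windows printed, and 12.7% of all windows held them. MEST has 5 windows in all, of 9 to 20 CG, and 1 of those not printed holds the letters, as does 1 of the 6 GNAS windows. Sequence windows were matched for 6 of the 10 members: the GNAS windows held 9 to 33 CG and the 6 ZNF331 windows 3 to 29. KCNQ1OT1, CDKN1C, PEG10 and SGCE had no entry.

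Expression values are the normalized log2 values that the authors deposited, 1 per gene and sample, and a difference is between group means on that log2 scale. Read depth is unknown. The 2 lines were probably normalized apart, which is not stated, so levels are compared within a line and never between lines or genes. Differences of low genes are compressed: the median gene with a mean value of 4 to 6 ranged over 0.10 across the 9 samples in HL-60 and 0.15 in MOLM-13, against 0.18 and 0.23 for a mean of 10 to 14. Replicates lay close together, the median gene having an SD within a group of 0.027 to 0.031 in HL-60 and 0.037 to 0.043 in MOLM-13. All 7 markers of myeloid cells had a row in both lines, and of 11 markers of other lineages 2 had a row in HL-60 and 5 in MOLM-13. The summed myeloid markers lay at 17.12 to 17.17 in MOLM-13 with DMSO, 17.70 to 17.79 with DAC and 17.21 to 17.27 with NTX-301, and at 18.83 to 18.90, 18.78 to 18.80 and 18.53 to 18.56 in HL-60. Summed markers of other lineages lay at 13.07 to 13.11, 13.31 to 13.34 and 13.18 to 13.29 in MOLM-13, and at 8.51 to 8.55, 8.65 to 8.67 and 8.82 to 8.91 in HL-60. PECAM1, which myeloid cells also express, lay close to these sums. Its means were 13.01, 13.25 and 13.14 in MOLM-13 and 8.43, 8.56 and 8.77 in HL-60. These sums therefore do not show expression of other lineages. The sums thus mostly follow single genes: PECAM1 here, and LYZ (MOLM-13) or MPO (HL-60) among myeloid markers. Single myeloid markers disagreed in HL-60: DAC raised 2 of 7 and lowered 3, and NTX-301 raised 2 and lowered 4 (limma adjusted p under 0.05). In MOLM-13, DAC raised 4 of 7 and lowered 0, and NTX-301 raised 3 and lowered 1. The part of such shifts in the results below was not tested. In bulk RNA a smaller share of cells with a transcript and less of it per cell cannot be told apart.

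The first comparison asked whether the imprinted genes moved when either drug replaced DMSO. KCNQ1OT1, the long RNA that silences its neighbours on the paternal chromosome 11, and IGF2R, the receptor that carries IGF2 to lysosomes, rose with both drugs in both lines. No other member was called higher in all 4 comparisons, though PLAGL1 in HL-60 and GNAS in MOLM-13 moved at least as far as IGF2R there. Calls are limma adjusted p-values under 0.05, with Benjamini-Hochberg adjustment over all genes of the comparison. In HL-60, DAC raised 3 of the 7 members (KCNQ1OT1, PLAGL1 and IGF2R) and lowered 0, where 24.2% of all tested genes were called in either direction, and NTX-301 raised 6 of 7 and lowered 0, where 37.4% of all genes were called. In MOLM-13, DAC raised 3 of the 8 members (KCNQ1OT1, GNAS and IGF2R) and lowered MEST, where 36.6% of all genes were called, and NTX-301 raised 5 of 8 and lowered MEST, where 45.1% were called. The members' share was thus above that of all genes in each comparison, over only 7 or 8 genes: 42.9% (DAC) and 85.7% (NTX-301) for HL-60, and 50% and 75% for MOLM-13. These shares are a description and were not tested, and the members were chosen with earlier results of these data known. All genes include low ones, whose differences are compressed: 1059 HL-60 genes with a mean of 0 to 3 had a median range of 0.021. Among genes beside the members, most of them not imprinted, DAC called 57.9% and NTX-301 68.4% in MOLM-13. Their HL-60 shares were 23.5% and 52.9%. Only for DAC in MOLM-13 was the neighbours' share above that of the members. The median HL-60 member differed from DMSO by 0.10 (DAC) and 0.18 (NTX-301) and the median MOLM-13 member by 0.085 and 0.12, while the median of all genes was within 0.0034 of 0 in each. Genes called higher made up 11.6% (DAC) and 18.3% (NTX-301) of all HL-60 genes, and 15.4% and 20.3% of all MOLM-13 genes. The balance of all calls depended on scaling. When samples were centred on their medians, NTX-301 in HL-60 gave 2310 higher and 5400 lower genes in place of 3115 and 3265. For MOLM-13 the same step gave 1960 and 5731 in place of 2689 and 3705 (DAC) and 2735 and 5760 in place of 3543 and 4337 (NTX-301). Across the drugs and lines 2 of the 7 members with rows in both lines, KCNQ1OT1 and IGF2R, were called higher in all 4 comparisons, as were 1.87% of all 15474 genes tested in both lines. Both drugs were set against the same DMSO samples, so these calls are not independent.

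**Figure D1:**
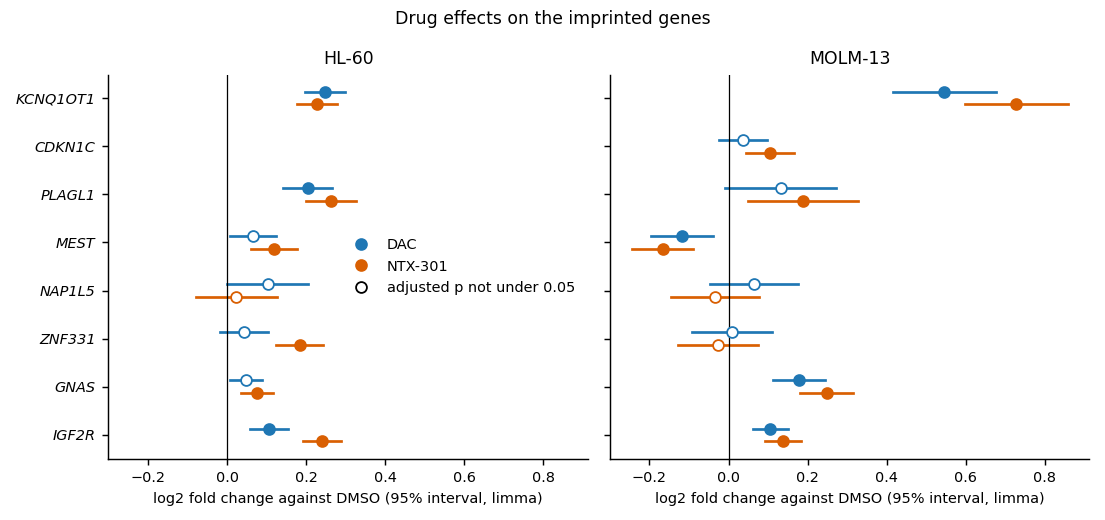
Difference from DMSO on the log2 scale for each member with a row (points, open where the adjusted p was not under 0.05, with 95% intervals from limma as bars), by drug and cell line. KCNQ1OT1 in MOLM-13 lies farthest from 0, at 0.55 with DAC and 0.73 with NTX-301, and MEST is to the left of 0 in MOLM-13 and to the right in HL-60.

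KCNQ1OT1 (NCBI Gene 10984) starts within an intron of KCNQ1 on chromosome 11 and runs antisense to it. In MOLM-13 its 3 DMSO samples read 9.90, 9.89 and 9.82, its DAC samples 10.28, 10.45 and 10.51, and its NTX-301 samples 10.50, 10.67 and 10.61. Every drug-treated sample was above every DMSO sample, while the ranges of the drugs touched between 10.50 and 10.51. The difference from DMSO was 0.55 with DAC (SE 0.060, limma adjusted p 3.89e-05), a 1.46-fold rise on the linear scale, and 0.73 with NTX-301 (adjusted p 3.31e-06), a 1.66-fold rise. In HL-60 the DMSO samples read 11.97, 11.96 and 11.98, the DAC samples 12.22, 12.22 and 12.20, and the NTX-301 samples 12.23, 12.15 and 12.20. Again DMSO lay below all treated samples and the drugs overlapped each other. DAC raised it by 0.25 (SE 0.024, limma adjusted p 5.64e-06), or 1.19-fold, and NTX-301 by 0.23 (adjusted p 4.38e-06), or 1.17-fold.

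KCNQ1OT1 silences the maternally expressed genes around it, among them CDKN1C, an inhibitor of cyclin-dependent kinases that restrains growth. CDKN1C (1028) was a low gene in MOLM-13, where compression is strong. Its DMSO samples read 4.51, 4.54 and 4.49, its DAC samples 4.55, 4.57 and 4.53 and its NTX-301 samples 4.58, 4.61 and 4.68. The DAC samples lay at 4.53 to 4.57 and so overlapped DMSO at 4.49 to 4.54, while the NTX-301 samples were above all DMSO samples. The difference was 0.04 with DAC (limma adjusted p 0.335) and 0.11 with NTX-301 (SE 0.028, adjusted p 0.00839), and the second was not called after quantile normalization (0.071).

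Of the genes that flank KCNQ1OT1, KCNQ1, SLC22A18 and PHLDA2 had rows in MOLM-13 only, like CDKN1C. SLC22A18 (5002), a membrane transporter expressed mainly from the maternal copy, read 6.70, 6.71 and 6.80 with DMSO, 6.97, 7.11 and 7.11 with DAC and 7.05, 7.09 and 7.14 with NTX-301. All its treated samples were above all controls. DAC raised it by 0.32 (SE 0.056, limma adjusted p 0.000804) and NTX-301 by 0.36 (adjusted p 0.000301). KCNQ1 (3784), a potassium channel, read 7.62, 7.68 and 7.77 with DMSO, 7.73, 7.60 and 7.74 with DAC and 7.97, 7.83 and 7.91 with NTX-301. It did not differ beyond the spread with DAC (0.00, adjusted p 0.987) while NTX-301 raised it by 0.22 (SE 0.062, adjusted p 0.0146), which did not pass without DMSO replicate 1 (0.18), without NTX-301 replicate 1 (0.18), or with quantile normalization (0.0996). Whether the counting used strand is not stated, so reads of KCNQ1OT1 and of the KCNQ1 introns cannot be told apart with certainty. PHLDA2, a growth-restraining gene of the placenta, differed by 0.04 and 0.05 and was not called. Farther out, the histone chaperone NAP1L4 (−0.14 and −0.18) and the transfer RNA synthetase CARS1 (−0.13 and −0.19) fell with DAC and NTX-301 in MOLM-13, the DAC calls being lost after quantile normalization (−0.052 and −0.080). In HL-60 neither was called, except CARS1 with NTX-301 after centring (−0.076) or without a mean-variance trend. Other flanking genes went both ways. From DMSO to NTX-301, mean OSBPL5 went from 13.07 to 13.38 in HL-60 and from 11.84 to 11.94 in MOLM-13. Mean CD81 went from 11.72 to 11.88 and from 12.28 to 12.34, and mean TSSC4 in MOLM-13 from 10.93 to 10.75.

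**Figure D2:**
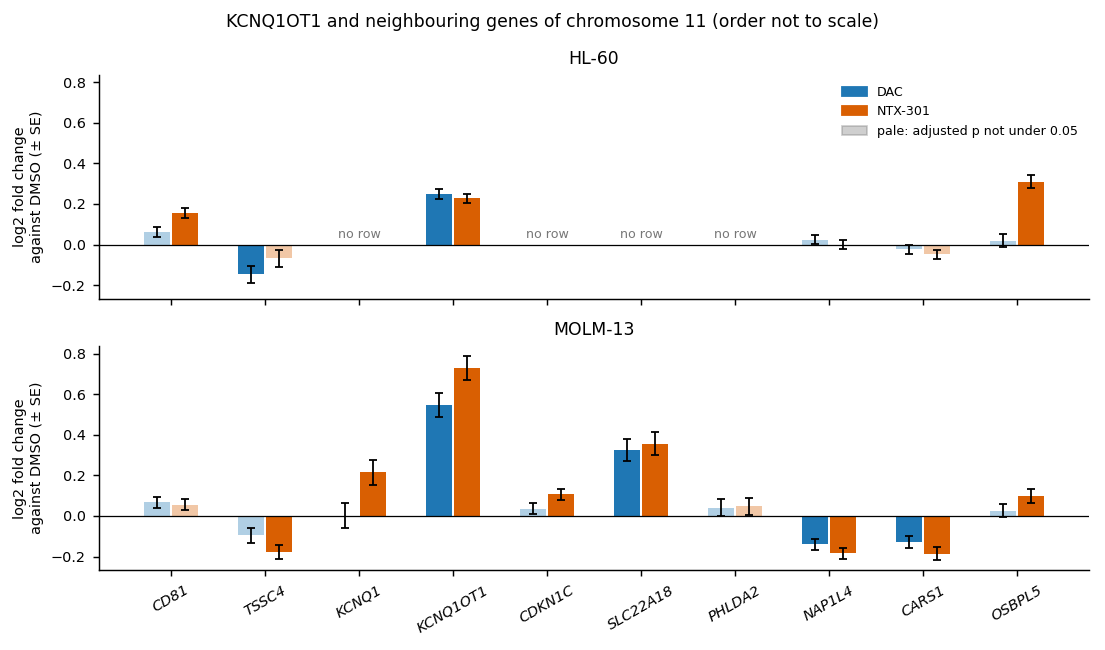
Bars give the difference from DMSO (log2 scale, ± SE from limma) of KCNQ1OT1 and the genes around it in their order along chromosome 11, by drug (colour) and line (panel), with pale bars where the limma adjusted p was not under 0.05. In MOLM-13 KCNQ1OT1 and SLC22A18 lie above 0 with both drugs and NAP1L4 and CARS1 below, and the 4 genes marked in the HL-60 panel have no row there.

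PLAGL1 (5325), on chromosome 6, encodes a zinc finger transcription factor that slows growth, and its imprinted transcript starts just downstream of the CG-rich window shared with HYMAI that is printed above. In HL-60 it read 10.10, 10.07 and 10.07 with DMSO, 10.29, 10.31 and 10.26 with DAC, and 10.37, 10.35 and 10.32 with NTX-301. The 3 groups did not overlap, in the order DMSO, DAC, NTX-301. Both drugs raised it, by 0.20 (SE 0.029, limma adjusted p 0.000184) and 0.26 (adjusted p 6.97e-06), and the step between the drugs was 0.06 (adjusted p 0.146). In MOLM-13 the DMSO samples read 6.89, 6.91 and 6.97, the DAC samples 6.98, 7.01 and 7.18, and the NTX-301 samples 7.19, 7.04 and 7.11. The treated samples lay above the controls, but the spread within the drug groups was wide. DAC gave 0.13 (SE 0.064, limma adjusted p 0.13) and NTX-301 0.19 (adjusted p 0.0296). The NTX-301 call was lost without DMSO replicate 1 (0.17) or 2 (0.18), without NTX-301 replicate 1 (0.15) or 3 (0.19), and after quantile normalization (0.094). HYMAI, an imprinted noncoding RNA on the same strand whose reads overlap those of PLAGL1, differed by 0.09 with either drug in HL-60 without a call, and by 0.07 (not called) and 0.11 (SE 0.034, adjusted p 0.0169) in MOLM-13. The HYMAI call was lost without DMSO replicate 1 (0.10) or 3 (0.10), without NTX-301 replicate 1 (0.079), and after centring (0.083) or quantile normalization (0.082). In HL-60 HYMAI was called with NTX-301 without DMSO replicate 3 (0.13).

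MEST (4232), on chromosome 7, encodes an enzyme of the alpha/beta hydrolase fold family and is expressed from the paternal copy where imprinted. In HL-60 it read 11.73, 11.72 and 11.74 with DMSO, 11.82, 11.75 and 11.82 with DAC and 11.89, 11.84 and 11.82 with NTX-301. The 3 groups did not overlap, though the highest DAC and the lowest NTX-301 sample both round to 11.82. NTX-301 raised it by 0.12 (SE 0.027, limma adjusted p 0.00293), and DAC gave 0.07 (adjusted p 0.0941), which was called without DAC replicate 2 (0.089, adjusted p 0.0391). In MOLM-13 the order was the opposite: DMSO read 11.93, 11.99 and 11.89, DAC 11.80, 11.87 and 11.79, and NTX-301 11.74, 11.74 and 11.82. With DAC, MEST fell by 0.12 (SE 0.036, limma adjusted p 0.0224), and with NTX-301 it fell by 0.17 (adjusted p 0.00257), with all treated samples under all controls. The DAC call was lost without DMSO replicate 2 (−0.089), DAC replicate 1 (−0.11) or DAC replicate 3 (−0.10) and after quantile normalization (−0.071).

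NAP1L5 (266812), a retrogene of the nucleosome assembly family, lies inside HERC3 on chromosome 4 on the opposite strand. It was the only member with a row in both lines that was called in none of the 4 drug comparisons. In HL-60 the DMSO samples read 7.28, 7.33 and 7.36, the DAC samples 7.32, 7.51 and 7.45 and the NTX-301 samples 7.33, 7.33 and 7.37. In MOLM-13 they read 7.68, 7.66 and 7.75, then 7.72, 7.80 and 7.75, then 7.63, 7.68 and 7.67. Each drug group overlapped DMSO in both lines, and in MOLM-13 the DAC samples lay above the NTX-301 samples. The difference in HL-60 with DAC was 0.10 (95% interval 0.00 to 0.20, limma adjusted p 0.138), and without DAC replicate 1 it was 0.16 and was called (adjusted p 0.0240). The other 3 differences lay between −0.03 and 0.06, and the lowest, with NTX-301 in MOLM-13, was called after quantile normalization (−0.14). HERC3 itself differed by −0.07 (adjusted p 0.0359) in HL-60 and 0.10 (adjusted p 0.0413) in MOLM-13 with NTX-301, and each call was lost in at least 4 of the 9 fits that left out 1 sample of the line.

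**Figure D3:**
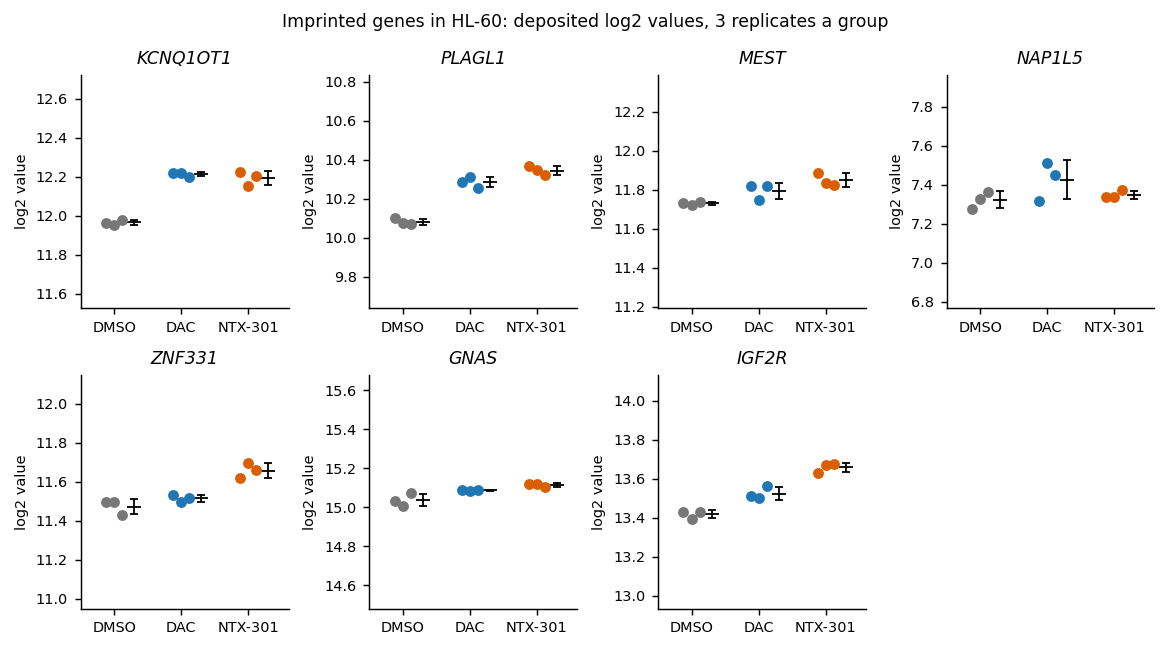
Deposited log2 value of each of the 7 members with a row in HL-60, one panel per gene, with points for the 3 replicates of each treatment and the group mean ± SD beside them. The vertical axes start at different values: PLAGL1, ZNF331 and IGF2R step up from DMSO to NTX-301, while the NAP1L5 groups overlap.

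ZNF331 (55422), a zinc finger gene on chromosome 19, read 11.49, 11.49 and 11.43 with DMSO in HL-60, 11.53, 11.50 and 11.52 with DAC, and 11.62, 11.69 and 11.66 with NTX-301. The NTX-301 samples stood above all others. NTX-301 raised it by 0.18 (SE 0.028, limma adjusted p 0.000131), and DAC gave 0.04 (adjusted p 0.296). In MOLM-13 the groups overlapped: DMSO read 5.35, 5.40 and 5.31, DAC 5.27, 5.45 and 5.37, and NTX-301 5.31, 5.37 and 5.30. The differences there were 0.01 and −0.03 (limma adjusted p 0.903 and 0.675).

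GNAS (2778) encodes the stimulatory G protein subunit of adenylyl cyclase signalling, and its locus on chromosome 20 makes maternal, paternal and biallelic transcripts that a value per gene adds together. In MOLM-13 it read 13.53, 13.44 and 13.52 with DMSO, 13.68, 13.67 and 13.67 with DAC, and 13.77, 13.69 and 13.76 with NTX-301. The 3 groups rose in that order without overlap. The differences from DMSO were 0.18 (SE 0.030, limma adjusted p 0.000711) and 0.25 (adjusted p 4.91e-05). In HL-60 it read 15.03, 15.01 and 15.07 with DMSO, 15.09, 15.08 and 15.09 with DAC and 15.12, 15.12 and 15.10 with NTX-301. The step there was smaller: 0.05 with DAC (limma adjusted p 0.0788) and 0.08 with NTX-301 (SE 0.019, adjusted p 0.00532), the second not called after centring each sample on its median (0.047). The DAC difference was called after quantile normalization (0.079) and without DMSO replicate 3 (0.065). STX16, a syntaxin gene beside GNAS whose deletions disturb GNAS imprinting, rose by 0.24 (adjusted p 0.000309) and 0.26 (adjusted p 0.000125) in MOLM-13, and in HL-60 by 0.15 with NTX-301 (adjusted p 0.000225).

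IGF2R (3482), on chromosome 6, is imprinted in mice and variably so in people. In HL-60 it read 13.43, 13.39 and 13.43 with DMSO, 13.51, 13.50 and 13.56 with DAC, and 13.63, 13.67 and 13.67 with NTX-301. The 3 groups were apart, and both drugs raised it, by 0.11 (SE 0.022, limma adjusted p 0.00358) and 0.24 (adjusted p 1.45e-06). In MOLM-13 the DMSO samples all read 15.08, the DAC samples 15.20, 15.17 and 15.19, and the NTX-301 samples 15.23, 15.22 and 15.21. The drugs stood clear of DMSO, by 0.11 (SE 0.020, limma adjusted p 0.00181) and 0.14 (adjusted p 0.000209).

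**Figure D4:**
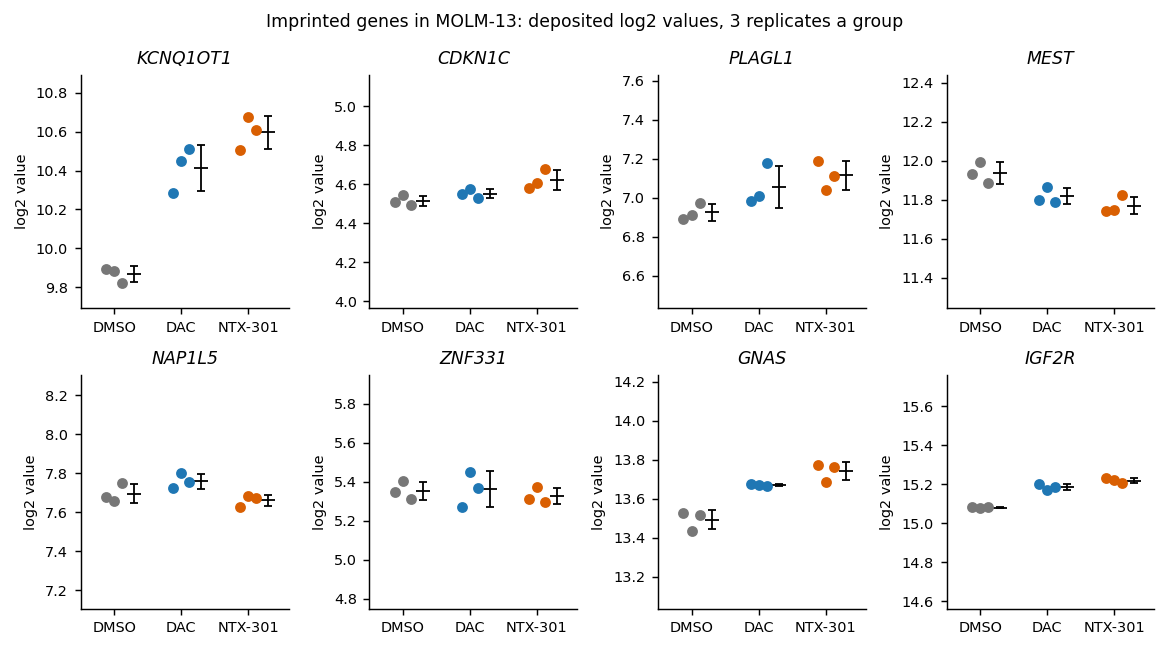
Deposited log2 value of each of the 8 members with a row in MOLM-13, one panel per gene, with points for the 3 replicates of each treatment and the group mean ± SD beside them. KCNQ1OT1, GNAS and IGF2R sit higher with both drugs than with DMSO, MEST sits lower, and CDKN1C and ZNF331 stay within 4.49 to 4.68 and 5.27 to 5.45.

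The second comparison set the drugs against each other within a line, at the same stated concentration if it holds for both. In HL-60, NTX-301 exceeded DAC for 2 of the 7 members, where 30.4% of all genes were called: IGF2R by 0.13 (limma adjusted p 0.000426) and ZNF331 by 0.14 (adjusted p 0.00167). For KCNQ1OT1 the drugs differed by −0.02 (95% interval −0.07 to 0.03, adjusted p 0.555). Also in HL-60, other settings called NAP1L5 without DAC replicate 1 (−0.13), PLAGL1 without a mean-variance trend (0.059) and GNAS after quantile normalization (0.058). In MOLM-13, limma called 0 of the 8 members, where 7.42% of all genes were called, and 3 of 8 had an unadjusted p under 0.05. Differences there included KCNQ1OT1 at 0.18 (95% interval 0.05 to 0.31, adjusted p 0.0913) and GNAS at 0.07 (adjusted p 0.195), both higher with NTX-301 in the means. A missed threshold does not show that the drugs act alike on these genes.

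The third comparison tested whether a drug's effect differed between lines (MOLM-13 minus HL-60). With DAC 3 of 7 members differed, where 30.0% of all genes did, and with NTX-301 5 of 7, where 40.0% did. KCNQ1OT1 rose more in MOLM-13: the difference for DAC was 0.30 (SE 0.066, limma adjusted p 0.00192) and for NTX-301 0.50 (adjusted p 6.8e-06). GNAS also rose more there, by 0.13 (adjusted p 0.00909) and 0.17 (adjusted p 0.000765). MEST moved in opposite directions, with a difference of −0.18 for DAC (adjusted p 0.00443) and −0.29 for NTX-301 (adjusted p 5.41e-05). For NTX-301 the effect was also smaller in MOLM-13 for ZNF331 (−0.21, adjusted p 0.0152) and for IGF2R (−0.10, adjusted p 0.00715), and that of IGF2R was not called after quantile normalization (−0.012). PLAGL1 (−0.07 with either drug, adjusted p 0.472 and 0.435) and NAP1L5 (adjusted p 0.706 and 0.532) did not pass. These differences are between line and dose together. ZNF331 was also a low gene in MOLM-13 (5.31 to 5.40 with DMSO), where differences are compressed. The part of compression in its difference between lines was not tested.

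A list of 69 known imprinted genes, the 10 members among them, gave the wider view. In HL-60, 34 of these were tested: DAC raised 10 and lowered 7 (50% called, median difference 0.068), and NTX-301 raised 14 and lowered 8 (64.7% called, median 0.076). In MOLM-13, 37 were tested: DAC raised 9 and lowered 6 (40.5% called, median 0.044), and NTX-301 raised 16 and lowered 3 (51.4% called, median 0.072). The DAC count in MOLM-13 fell from 15 to 7 without DMSO replicate 2 and to 9 without DMSO replicate 3, DAC replicate 2 or DAC replicate 3. Genes of this list therefore went both ways, and whether each is imprinted in these cells was not measured. Beside the shares of all genes called (24.2% and 37.4% for HL-60, 36.6% and 45.1% for MOLM-13), those of the list were higher in HL-60 and nearer in MOLM-13. Without the 10 members, the list had 51.9% (DAC) and 59.3% (NTX-301) called in HL-60. In MOLM-13 it then had 37.9% and 44.8%, close to the shares of all genes.

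**Figure D5:**
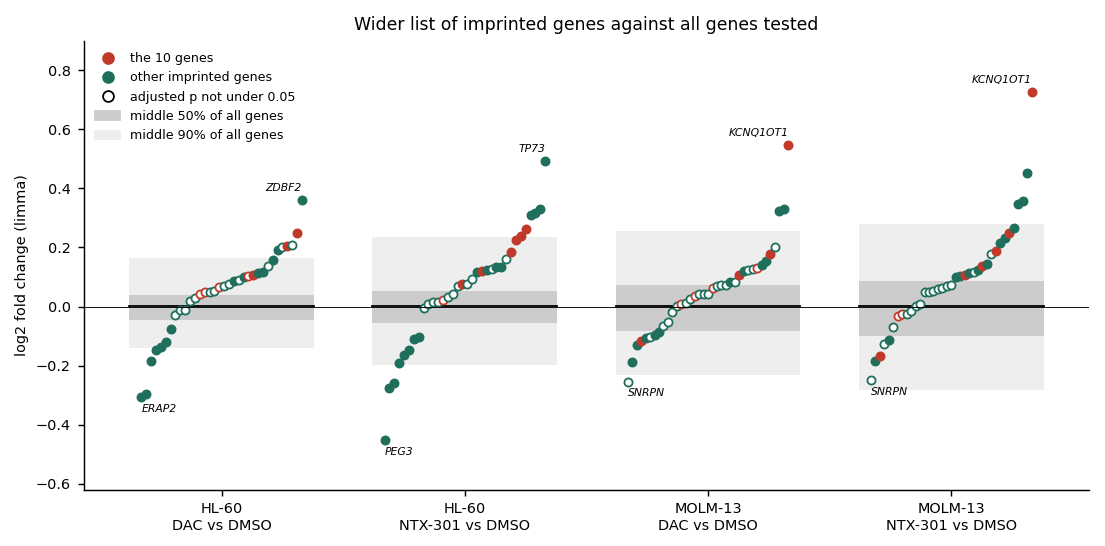
Difference from DMSO (log2 scale) of every tested gene of the 69-gene imprinted list, in rising order for each line and drug, with the members in red, open circles where the limma adjusted p was not under 0.05, shading for the middle 50% and 90% of all tested genes and a line at their median. Points fall on both sides of 0 in all 4 comparisons, from PEG3 at −0.45 (HL-60, NTX-301) to KCNQ1OT1 at 0.73 (MOLM-13, NTX-301).

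In HL-60 the genes of that list with the lowest adjusted p included both falls and rises. PEG3, a paternally expressed zinc finger gene, read 10.68, 10.58 and 10.59 with DMSO and 10.16, 10.13 and 10.21 with NTX-301, a fall of 0.45 (SE 0.035, limma adjusted p 2.76e-07). PEG3 was also lower with DAC, by −0.14 (adjusted p 0.0118), a call lost without DAC replicate 1 (−0.12). ERAP2, an aminopeptidase that trims peptides for antigen presentation, fell by 0.31 with DAC (adjusted p 2.59e-07) and by 0.28 with NTX-301 (adjusted p 2.99e-07). MKRN3, a ubiquitin ligase gene of the Prader-Willi region, fell by 0.29 with DAC (adjusted p 1.04e-05) and by 0.19 with NTX-301. GRB10, an adaptor that dampens insulin receptor signalling, rose by 0.19 with DAC (adjusted p 5.84e-06). WT1, a zinc finger factor often overexpressed in leukaemia, rose by 0.33 with NTX-301 (adjusted p 4.44e-07).

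GRB10 and WT1 went the other way in MOLM-13. GRB10 was lower by −0.13 with DAC (limma adjusted p 0.0483) and fell by 0.19 with NTX-301 (adjusted p 0.00714). The DAC call was lost in 7 of the 9 fits without 1 sample, which gave −0.14 to −0.12. WT1 fell by 0.19 with DAC (adjusted p 0.000461) and by 0.11 with NTX-301 (adjusted p 0.00760), the second not called after quantile normalization (−0.052). The difference between lines passed the test for both genes with both drugs: GRB10 −0.32 and −0.30, WT1 −0.30 and −0.45.

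Genes beside the members, 25 in all and most of them not imprinted, give the local background. In HL-60, 2 of 17 tested rose and 2 fell with DAC (23.5% called, against 24.2% of all genes), and 5 rose and 4 fell with NTX-301 (52.9% against 37.4%). In MOLM-13, 5 of 19 rose and 6 fell with DAC (57.9% against 36.6%), and 6 rose and 7 fell with NTX-301 (68.4% against 45.1%). PHACTR2, a phosphatase and actin regulator beside PLAGL1, had the highest neighbour difference in HL-60: DAC raised it by 0.25 (SE 0.041, limma adjusted p 0.000599) and NTX-301 by 0.47 (adjusted p 7.86e-07). In MOLM-13 PHACTR2 differed by 0.11 (called) and 0.05 (not called), and the DAC call was lost without DMSO replicate 2 (0.10) or 3 (0.10), without DAC replicate 1 (0.083) and after centring (0.077). SF3B5, a splicing factor subunit gene also near PLAGL1, was lower in all 4 comparisons, with differences of −0.19 and −0.23 for HL-60 and of −0.30 and −0.34 for MOLM-13 (adjusted p at most 4.17e-05). Near IGF2R, the kinase gene MAP3K4 fell in MOLM-13 by 0.23 and 0.18. Near GNAS, the lysosomal protease gene CTSZ rose in MOLM-13 by 0.25 and 0.17 and in HL-60 by 0.34 with NTX-301, while NELFCD, a subunit of a transcription pausing factor, differed by −0.12 and −0.17 in MOLM-13, both not called after quantile normalization.

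Of 11 genes that maintain or read imprints, 7 were tested in HL-60 and 8 in MOLM-13. ZNF445, a zinc finger protein that guards human imprints, rose in all 4 comparisons: by 0.08 (limma adjusted p 0.0327) and 0.20 (adjusted p 1.26e-05) in HL-60 with DAC and NTX-301, and by 0.13 (adjusted p 0.00201) and 0.19 (adjusted p 0.000117) in MOLM-13. The DAC call in HL-60 was lost without DMSO replicate 2 (0.059) or 3 (0.072) and without DAC replicate 1 (0.076) or 3 (0.059). ZFP57 had a row in MOLM-13 only and differed there by 0.00 and 0.04 (adjusted p 0.957 and 0.368). In MOLM-13, 5 of the 8 fell with either drug and ZNF445 rose (75% called, against 36.6% and 45.1% of all genes). UHRF1 (−0.33 and −0.51), DNMT1 (−0.18 and −0.26) and CTCF (−0.21 and −0.22) were among them. The other two, TRIM28 (−0.09 and −0.17) and the chromatin protein gene SMCHD1 (−0.14 and −0.15), were called with neither drug after quantile normalization, which gave 0.025 and −0.041 for TRIM28 and −0.042 and −0.0049 for SMCHD1. In HL-60, DAC raised 1 of 7 and lowered 1 (28.6% called, against 24.2% of all genes), and NTX-301 raised 2 and lowered 3 (71.4% against 37.4%). In HL-60 DNMT1 differed by 0.03 and 0.06 and UHRF1 by −0.01 and −0.08, and both NTX-301 values were called in the fit of all samples but in only 5 of 9 fits that left out 1. The DNMT1 call was also lost after centring (0.036), without a mean-variance trend and with only the compared groups in the fit. The UHRF1 call was lost after quantile normalization (−0.039).

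Likeness of pattern was described for the member with the lowest adjusted p in each line, as Pearson's r of log2 values over the 9 samples, among genes with a mean of at least 5. In HL-60 that member was IGF2R, and of 13837 genes the nearest were MIR124-1HG (r = 0.990), MSRB3 (r = 0.986) and EME1 (r = 0.984). Among the members, ZNF331 (r = 0.912, rank 554 of all) and GNAS (r = 0.881, rank 882) were nearest to IGF2R and NAP1L5 farthest (r = 0.110). In MOLM-13 it was KCNQ1OT1, and of 14625 genes the nearest were TVP23C (r = 0.995), GIPR (r = 0.995) and PDLIM1P4 (r = 0.994). Nearest to KCNQ1OT1 among the members there were IGF2R (r = 0.936, rank 439 of all) and GNAS (r = 0.900, rank 929), and MEST ran against it (r = −0.826). The 9 samples fall into 3 treatments and are not independent points.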

How the data were processed

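Stranded total RNA libraries of 18 samples were used. Per the submitters' processing notes, FastQC, Trimmomatic 0.38, HISAT2, StringTie and hg19 were used; the normalization is not given in the sources used here. The deposited log2 values, as the authors normalized them, are 1 value per gene and sample. They were analysed as deposited. The drug groups of a line were compared in 1 fit with a mean per group (limma 3.58.1, R 4.3.3; 6 residual degrees of freedom, mean-variance trend, two-sided) over genes whose linear value reached 1 in 3 or more samples (17046 in HL-60, 17475 in MOLM-13). Effects were compared between lines in 1 fit of 18 samples (15474 genes). The Benjamini-Hochberg adjustment ran over every gene tested. The members and lists were chosen with earlier results of these data known. Named beside the members were, per drug comparison, the 3 genes of the imprinted list with the lowest adjusted p outside the members, a selection of the called neighbours, and the imprint maintenance genes. KCNQ1, HYMAI, PHLDA2, OSBPL5, PEG13, ZDBF2, TP73, UBE3A and SNRPN were named outside this rule, after their values were seen. Alternatives were centring, quantile normalization, no trend, other filters, a threshold of 0.01, fitting only the groups compared, a replicate block and leaving out each sample. The steps were tested on simulated data. Gene IDs matched RefSeq for 97.9% (HL-60) and 98.0% (MOLM-13) of genes. The 64 lowest HL-60 genes shared 1 set of values (61 in MOLM-13).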

Additional observations from a re-analysis of the deposited data

Results flagged for a closer look

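For these members and named genes of the imprinted list, the effect of a drug was not the same in MOLM-13 as in HL-60: the difference between the 2 effects (MOLM-13 less HL-60) passed a test of its own (limma, adjusted p under 0.05). With DAC, the difference was 0.30 for KCNQ1OT1, 0.13 for GNAS, −0.18 for MEST, −0.32 for GRB10, 0.25 for ERAP2, −0.30 for WT1 and 0.34 for TRAPPC9. With NTX-301 it was 0.50 for KCNQ1OT1, 0.17 for GNAS, −0.29 for MEST, −0.10 for IGF2R, −0.21 for ZNF331, −0.30 for GRB10, 0.32 for ERAP2, −0.45 for WT1 and 0.49 for TRAPPC9. Of all genes tested in both lines, 30.0% with DAC and 40.0% with NTX-301 passed the same test. The stated concentration differs between lines, so line and dose cannot be told apart. ZNF331 was also a low gene in MOLM-13, where differences are compressed.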

How the results depend on the processing

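For the members, 701 of 720 alternative values of differences within lines kept their direction and their side of the threshold, and those that did not are given with the genes above. Directions turned after quantile normalization for TRIM28 with DAC in MOLM-13 (0.025), SETDB1 with NTX-301 in MOLM-13 (0.060), and, between lines with DAC, IGF2R (0.12) and TRIM28 (0.015); the cause was not tested. At an adjusted p under 0.01, which by construction calls fewer genes, DAC called 2300 HL-60 genes and 4156 MOLM-13 genes, and NTX-301 against DAC 3317 and 357. The imprinted list then had 11 calls with DAC in HL-60, 6 in MOLM-13, and 0 between the drugs in MOLM-13. Leaving out 1 sample gave 462 to 1322 genes for NTX-301 against DAC in MOLM-13 (1297 with all samples) and 0 to 2 genes of the imprinted list (3 with all), and 7 to 16 of the list for DAC against DMSO there. Members called were 3 to 4 (DAC) and 6 in each such fit (NTX-301) for HL-60, and 3 to 4 and 5 to 6 for MOLM-13. Without a mean-variance trend 1 gene of the list was called between the drugs in MOLM-13. The replicate numbers are not shown to pair the samples: 1 of 9 same-numbered pairs in each line had a correlation over 0.1. By best correlation, 6 of 9 HL-60 samples matched their own number, a hint of pairing from the data, and 1 of 9 MOLM-13 samples did. With a replicate block the calls between the drugs in MOLM-13 went to 817 genes and 1 of the list, no member's call changed, and those for DAC against DMSO went to 4017 HL-60 genes and 5962 MOLM-13 genes. Read depth is unknown, and low genes such as CDKN1C and ZNF331 in MOLM-13 are compressed.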

Other observations

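Genes of other imprinted loci moved in both directions in MOLM-13. IPW, a noncoding RNA of the Prader-Willi region on chromosome 15, read 9.58, 9.64 and 9.78 with DMSO, 9.94, 9.92 and 10.12 with DAC and 9.97, 10.01 and 9.82 with NTX-301, with all treated samples above all controls. DAC raised it by 0.33 (SE 0.069, limma adjusted p 0.00286) and NTX-301 by 0.27 (adjusted p 0.00775). SNHG14, the long host transcript of the same region that overlaps IPW, differed by 0.08 with DAC (adjusted p 0.0311), a call lost without DMSO replicate 2 (0.081) or 3 (0.057), DAC replicate 2 (0.084) or 3 (0.076), with a replicate block (0.082), with only the compared groups in the fit (0.082) and after centring (0.045), and by 0.14 with NTX-301 (adjusted p 0.00105). Other genes of that region lay lower there: SNRPN, which encodes a splicing protein, differed by −0.25 with each drug (adjusted p 0.0673 and 0.0612), both called after centring (−0.29 and −0.28) and without DMSO replicate 1 (−0.36 each) or DAC replicate 2 (−0.33 and −0.25), and the second also without NTX-301 replicate 2 (−0.33), and the ubiquitin ligase gene UBE3A by −0.10 under DAC (adjusted p 0.0349) and −0.07 under NTX-301 (adjusted p 0.102), the DAC call being lost without DMSO replicate 2 (−0.093) or 3 (−0.078), without DAC replicate 2 (−0.066) or 3 (−0.097) and after quantile normalization (−0.0082), and the NTX-301 value called without DMSO replicate 1 (−0.094). SNRPN and UBE3A were named after their values were seen. Reads of such overlapping transcripts may be shared between them.

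TRAPPC9, a vesicle trafficking gene that holds the imprinted RNA PEG13 in an intron, read 12.14, 12.08 and 12.12 with DMSO in MOLM-13 and 12.36, 12.52 and 12.52 with NTX-301, a rise of 0.35 (SE 0.051, limma adjusted p 0.000201). PEG13, named after its values were seen, rose there by 0.45 (SE 0.12, adjusted p 0.00860), with replicates at 7.92, 8.30 and 8.43 against 7.72 to 7.84 in DMSO. In HL-60 TRAPPC9 fell by 0.15 (adjusted p 0.0205) under NTX-301, and this call was lost without DMSO replicate 3 (−0.11), without NTX-301 replicate 1 (−0.10) and without a mean-variance trend (adjusted p 0.0526), and PEG13 differed by 0.01 (adjusted p 0.893).
Chosen likewise after their values were seen, ZDBF2 and TP73 had the highest differences of the imprinted list in HL-60. ZDBF2, a paternally expressed zinc finger gene, rose under DAC by 0.36 (adjusted p 5.1e-05) and under NTX-301 by 0.32 (adjusted p 6.06e-05), and TP73, a relative of the tumour suppressor p53, rose by 0.49 with NTX-301 (adjusted p 2.06e-06) and differed by 0.07 with DAC (adjusted p 0.285; 0.13 and called without DMSO replicate 3).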
